A study of Mus musculus and Homo sapiens with 34 samples.

Results

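The Slit, semaphorin, plexin and netrin guidance genes were taken as every gene whose symbol names a Slit (1 to 3), a Robo (1 to 4), a semaphorin of classes 3 to 7, a plexin, a neuropilin (1 or 2), a netrin (1 to 5) or an Unc5 receptor (A to D). The rule found 46 of 55450 genes in the mouse table and 46 of 58870 in the human table, and it used symbols only, not measured values. PolyA RNA of spheroids was measured in 3 colorectal carcinoma lines, 2 from mouse (CT26 and MC38) and 1 from human (HT29, an established line), in 34 libraries. In each line, spheroids grown with SIS ECM, a decellularised extracellular matrix material, were compared with spheroids of cells alone, all collected after 7 days in ultra-low attachment plates. There were 6 libraries of each culture in CT26 and in HT29, and 5 of each in MC38 (cells alone 1 to 5, SIS ECM 1, 3, 4, 5 and 6). Each library came from 10 spheroids pooled in a tube, and the labels name no other cell type in the cultures. Whether replicate libraries were separate cultures is not stated in the labels, and p-values then reflect only the variation among these libraries, possibly technical.

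These genes were named for steering growing axons, and they also act in vessel growth, epithelial adhesion and tumour cell migration. Slits are secreted and bind Robo receptors. Class 3 semaphorins are secreted and bind neuropilins, which have short cytoplasmic tails and signal together with A-type plexins and plexin D1. Semaphorins of classes 4 to 7 are held at the membrane and bind plexins directly in most cases, plexin B receptors for several class 4 members, A-type plexins for class 6 and plexin C1 or integrins for Sema7a. Netrins are secreted and bind DCC and Unc5 receptors. Several of these ligands bind heparan sulfate or other matrix components, and neuropilins are also receptors for VEGF.

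For 3 mouse genes the response to SIS ECM differed between the mouse lines and the start in RefSeq coincided with the start of the gene in the GENCODE annotation. The 250 bases before that start are shown for these, 5′ to 3′ on the gene's strand, from RefSeq on GRCm38.p6, with GC boxes (GGGCGG on either strand) in capitals. The windows are chr2:124089719-124089968 (plus strand) for Sema6d, chr9:57939862-57940111 (plus strand) for Sema7a and chr6:115995006-115995255 (minus strand) for Plxnd1.
Sema6d: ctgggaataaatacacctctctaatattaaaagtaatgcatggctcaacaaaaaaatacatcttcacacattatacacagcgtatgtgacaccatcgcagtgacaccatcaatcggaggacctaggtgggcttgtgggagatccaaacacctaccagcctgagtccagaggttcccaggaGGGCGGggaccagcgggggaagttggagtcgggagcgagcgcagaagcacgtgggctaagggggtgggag
Sema7a: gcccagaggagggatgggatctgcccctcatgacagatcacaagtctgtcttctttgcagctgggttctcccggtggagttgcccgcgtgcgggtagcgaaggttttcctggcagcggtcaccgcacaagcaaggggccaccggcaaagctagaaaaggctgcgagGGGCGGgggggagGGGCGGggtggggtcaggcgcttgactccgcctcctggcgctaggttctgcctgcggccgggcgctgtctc
Plxnd1: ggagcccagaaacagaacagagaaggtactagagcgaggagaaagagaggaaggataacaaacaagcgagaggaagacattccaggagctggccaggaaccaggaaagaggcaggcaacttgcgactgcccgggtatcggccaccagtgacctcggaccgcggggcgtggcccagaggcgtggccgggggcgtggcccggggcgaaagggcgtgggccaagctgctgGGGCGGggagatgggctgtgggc
The Sema6d window held 1 GC box, that of Sema7a 2 and that of Plxnd1 1, and none of the 3 held an AP-1 motif (TGANTCA) or a TATA box (TATAAA). RefSeq also gives a Sema6d start 563612 bases inside the gene, whose window is not shown and held no GC box and 45.2% G and C. Which Sema6d start was used in these spheroids was not tested. The G and C content was 52.4% for Sema6d, 66.4% for Sema7a and 64.8% for Plxnd1, beside a median of 52.4% over all 32851 RefSeq windows of that length. A GC box lay in 34 of 51 windows of the guidance genes (38 symbols matched) and in 32.7% of all windows. The AP-1 motif lay in 3 of the 51 and in 6.75% of all windows, and the TATA box in 1 of the 51 and in 12.4% of all. Both strands were searched, and since GC boxes were the only matches in the 3 windows shown, no motif overlapped another there. The window of Slit3 was the richest of those examined in G and C, with 78.8% and 6 GC boxes, but its RefSeq start lies 232 bases inside the GENCODE gene, so it is not shown.

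Total counts, in units of 1e6, ran from 15.8 to 24.2 in the mouse libraries and from 25.5 to 37.0 in the human ones. In both mouse lines the libraries numbered 1 to 3 stood apart from those numbered 4 to 6. Mitochondrially encoded genes took 3.72 to 5.01% of counts in CT26 libraries 1 to 3 and 7.66 to 8.59% in libraries 4 to 6. In MC38 they took 3.42 to 4.94% and 5.71 to 7.24%, and in HT29 the ranges overlapped (5.33 to 6.80% and 5.39 to 6.89%). The labels do not say what separates the numbers, both cultures are present on each side, and responses within each number range are given where the ranges differed in size or in call. In bulk RNA, fewer cells of a type and less RNA per cell cannot be told apart. Epithelial markers were abundant in HT29, where 10 markers summed to 9882 to 11268 CPM (counts per 1e6 counts) in cells alone and 9095 to 11030 with SIS ECM, and 2 of 10 tested fell (VIL1 and KRT20). They were nearly absent in MC38 (0.249 to 1.33 CPM in sum, with Cdx2, Cldn4, Epcam, Krt19 and Krt20 at 0). In CT26 their sum was 42.6 to 57.3 CPM in cells alone and 62.3 to 74.1 with SIS ECM, with Cdh1, Cldn4, Cldn7 and Epcam at 0 and 1 of 3 tested higher (Krt18). Defining epithelial transcripts of the labelled carcinoma type were thus measured in HT29 and largely missing in the mouse lines. Fibroblast markers summed to 502 to 764 CPM in CT26 cells alone and 439 to 678 with SIS ECM, with 1 of 6 tested higher (Dcn). In MC38 they summed to 3621 to 4563 and 2681 to 4242 CPM, and 2 of 6 tested fell (Fap and Col1a1, the latter by 3.23 on the log2 scale). In HT29 they summed to at most 1.62 CPM. Leukocyte markers summed to 10.5 to 14.4 CPM in CT26 cells alone and to 15.5 to 27.9 with SIS ECM, with 1 of 2 tested higher (Cd14) and Cd3e at 0. In MC38 they summed to 2.79 to 4.53 CPM with 0 of 3 called, and in HT29 to 27.0 to 31.0 in cells alone and 24.5 to 28.8 with SIS ECM, with 1 of 2 tested lower (CD68). Endothelial markers summed to at most 0.790 CPM in CT26 and 0.568 in HT29, and in MC38 to 3.62 to 5.52 in cells alone and 1.89 to 4.15 with SIS ECM, with Cldn5, Kdr and Tie1 at 0 and 0 of 1 tested called. Neuron and Schwann cell markers, which matter for guidance genes, summed to 2.63 to 4.51 CPM in CT26 over both cultures (0 of 1 called). They summed to 30.02 to 53.2 CPM in MC38 cells alone and 20.2 to 46.7 with SIS ECM (0 of 3 called). In HT29 they summed to 8.89 to 10.9 in cells alone and 10.97 to 14.2 with SIS ECM, and 1 of 3 tested rose (TUBB3). The part of these markers in the results was not tested.

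SIS ECM changed 8 guidance genes in each line, in different directions. In CT26, 5 rose and 3 fell among 23 tested (34.8%), where 9.25% of all tested genes were called, 6.15% higher and 3.10% lower. In MC38, 4 rose and 4 fell among 31 tested (25.8%), beside 9.17% of all genes, 3.82% higher and 5.36% lower. In HT29, 6 rose and 2 fell among 28 tested (28.6%), beside 13.5% of all genes, 7.75% higher and 5.79% lower. Genes were called at an adjusted p below 0.05 by the quasi-likelihood test of edgeR, adjusted by Benjamini-Hochberg across every gene tested in a line, and all adjusted p-values below are from that test unless another is named. The median log2 fold change of the tested members was 0.11 in CT26, −0.12 in MC38 and 0.093 in HT29, against 0.0082, 0.0062 and −0.0046 for all genes. The SIS ECM libraries did not overlap the cells-alone libraries for 4 members in CT26, 6 in MC38 and 2 in HT29, where this held for 6.95%, 9.65% and 6.39% of all genes. With replicate number as a block, which treats same-numbered libraries of a line as pairs, 10 members were called in CT26 and 7 in MC38. With a term for the number range, the MC38 count was 14. Calls over all genes also rose with the block in CT26 and with the term in MC38, as given in the last section. These rises were thus not particular to the guidance genes. Single libraries also moved the counts: CT26 had 4 called members without any 1 of cells-alone libraries 4, 5 or 6 or SIS ECM libraries 1 or 2, and 5 without SIS ECM library 3. MC38 had 4 without cells-alone library 3, and 5 without cells-alone library 2 or 5 or SIS ECM replicate 1, 3 or 6. In all, 16 genes were called in at least 1 line, and NRP1 was the 1 gene called in all 3, up in CT26 and HT29 and down in MC38.

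**Figure D1:**
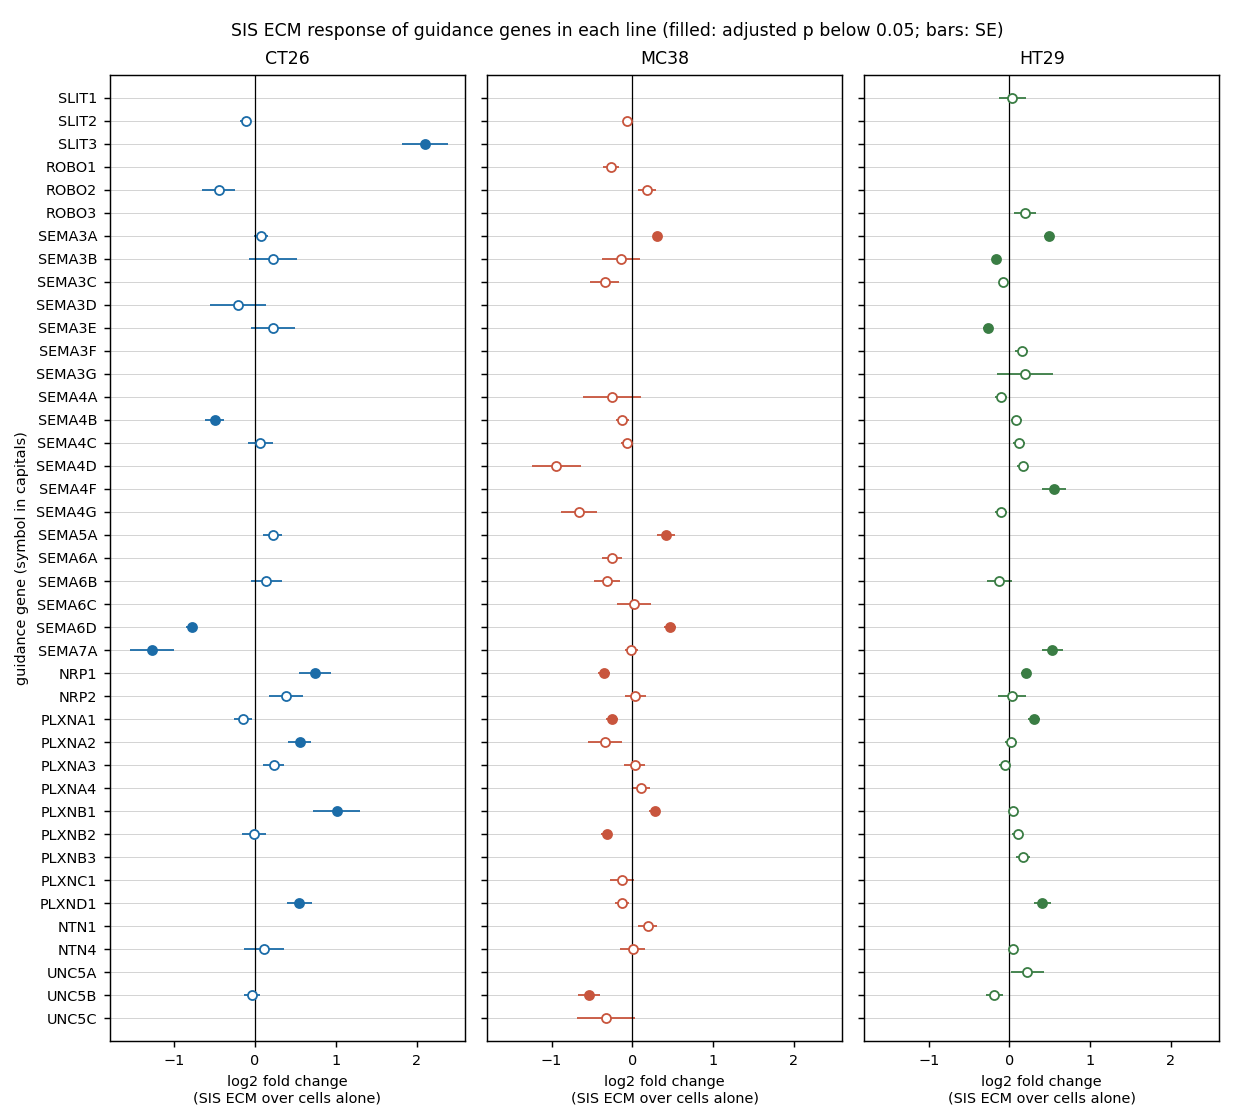
Log2 fold change (SIS ECM over cells alone) ± SE of each tested guidance gene in CT26, MC38 and HT29; filled points have an adjusted p below 0.05. Most points lie within 1 log2 unit of 0, Slit3 in CT26 lies at 2.10, and Sema6d lies on opposite sides of 0 in the mouse lines.

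Among the Slits, the secreted Robo ligands, Slit3 (chr11:35121224-35708507 in mm10) rose about 4-fold in CT26. It ran from 2.19 to 6.06 CPM in the 6 cells-alone libraries, with a median of 3.70, and from 11.1 to 26.4 with SIS ECM, with a median of 14.8. No cells-alone library reached the lowest SIS ECM library, and libraries 1 to 3 were higher than 4 to 6 in both cultures. The means were 3.94 ± 1.498 and 17.0 ± 6.78 CPM (SD, n = 6 each), a log2 fold change of 2.10 ± 0.29 (SE, adjusted p = 0.000326). Within number ranges it was 2.15 in libraries 1 to 3 and 2.00 in libraries 4 to 6. Slit3 had 443 counts over the CT26 cells-alone libraries and none in any of the 10 MC38 libraries, while in HT29 SLIT3 had 4 and 1 counts in the cultures. Slit2, the most abundant Slit, was at 325 ± 30.9 CPM in CT26 cells alone and 299.7 ± 15.7 with SIS ECM, a log2 difference of −0.12 ± 0.07 (adjusted p = 0.348). In MC38 it was at 61.9 ± 2.84 and 59.4 ± 4.14 CPM, with an adjusted p of 0.583. SLIT1 was the only Slit tested in HT29, at 1.74 ± 0.44 and 1.80 ± 0.29 CPM.

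No Robo receptor, the Slit-binding side of the pathway, passed the test in any line. Robo2 was at 1.03 ± 0.20 CPM in CT26 cells alone and 0.757 ± 0.152 with SIS ECM (log2 −0.45 ± 0.20, adjusted p = 0.187). In MC38 Robo2 was at 7.25 ± 1.04 and 8.24 ± 0.51 CPM, and Robo1 at 18.3 ± 1.37 and 15.2 ± 2.41 CPM (adjusted p = 0.129). Robo1 was nearly absent from CT26, with 28 counts over 6 cells-alone libraries. ROBO3 was the tested member in HT29, at 1.41 ± 0.21 and 1.603 ± 0.216 CPM. Robo4, known from endothelium, passed the low-count filter in no line.

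Among the class 3 semaphorins, the secreted neuropilin ligands, Sema3a (chr5:13125414-13602565) rose in MC38 and in HT29. In MC38 the cells-alone libraries 1 to 5 held 170, 173, 175, 186 and 175 CPM. The SIS ECM libraries 1, 3, 4, 5 and 6 held 213, 217, 224, 217 and 220 CPM, all above every cells-alone library. The log2 fold change was 0.31 ± 0.05 (adjusted p = 0.00327), and 0.31 and 0.28 within the number ranges. In HT29 SEMA3A ran from 10.6 to 13.6 CPM in cells alone (median 11.3) and from 15.4 to 17.3 with SIS ECM (median 16.1). The cultures again did not overlap, with a log2 fold change of 0.49 ± 0.06 (adjusted p = 3.86e-05). CT26 held far more Sema3a, 1485 ± 99.3 CPM in cells alone and 1562 ± 176 with SIS ECM, without a called difference (log2 0.07 ± 0.09, adjusted p = 0.684).

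The other secreted semaphorins that moved did so in HT29 and downward. SEMA3E, a plexin D1 ligand that needs no neuropilin for that binding, fell from 11.1 ± 0.72 to 9.27 ± 0.34 CPM (log2 −0.27 ± 0.06, adjusted p = 0.00455). Its SIS ECM libraries ran from 8.85 to 9.78 CPM and its cells-alone libraries from 10.3 to 12.003, without overlap. SEMA3B, a candidate tumour suppressor in lung cancer, fell from 79.0 ± 3.71 to 70.4 ± 5.92 CPM (log2 −0.17 ± 0.05, adjusted p = 0.0475). The cultures overlapped for SEMA3B, from 74.4 to 83.8 CPM in cells alone and from 60.6 to 75.0 with SIS ECM. Its call held only without cells-alone library 5 or SIS ECM replicate 2 or 3, and the adjusted p reached 0.107 when other libraries were left out. Sema3b, Sema3d and Sema3e in CT26 and Sema3b and Sema3c in MC38 were tested and not called. In MC38 Sema3c stood at 22.5 ± 3.38 and 17.7 ± 5.61 CPM (adjusted p = 0.255).

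Of the membrane-held semaphorins, Sema6d (chr2:124089969-124667770), a class 6 member that binds plexin A receptors, moved in opposite directions in the mouse lines. In CT26 it fell from 55.8 ± 3.62 to 32.4 ± 2.21 CPM, from a range of 52.0 to 62.5 in cells alone to a range of 28.7 to 34.8 with SIS ECM. The log2 fold change was −0.78 ± 0.07 (adjusted p = 4.97e-06), and it was −0.79 and −0.78 within the number ranges. In MC38 the cells-alone libraries 1 to 5 held 16.1, 16.5, 13.6, 16.2 and 16.1 CPM. With SIS ECM the libraries 1, 3, 4, 5 and 6 held 20.5, 22.0, 21.2, 21.4 and 23.8 CPM, each above every cells-alone library. That is a log2 fold change of 0.47 ± 0.07 (adjusted p = 0.0027), with 0.45 in both number ranges. SEMA6D had no count in any HT29 library.

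Sema7a (chr9:57940112-57962865), a GPI-anchored semaphorin that binds integrins and plexin C1, fell in CT26 and rose in HT29. In CT26 it ran from 0.762 to 1.89 CPM in cells alone (median 1.29) and from 0.420 to 0.702 with SIS ECM (median 0.474), without overlap. These are low levels, 140 counts over the 6 cells-alone libraries, and the log2 fold change was −1.28 ± 0.27 (adjusted p = 0.00887). Each cells-alone library held 14 to 31 counts, and SIS ECM libraries 1 to 6 held 9, 16, 8, 8, 7 and 11. Sema7a thus passed the low-count filter in CT26 through the culture where it was higher, which limits what this call shows. The number ranges differed, with −0.71 in libraries 1 to 3 (adjusted p = 0.151) and −1.72 in libraries 4 to 6 (adjusted p = 0.000666). In cells alone, CT26 libraries 4 to 6 held 1.89, 1.73 and 1.56 CPM and libraries 1 to 3 held 0.762, 0.850 and 1.03. In HT29 SEMA7A rose from 2.68 ± 0.34 to 3.88 ± 0.78 CPM (log2 0.53 ± 0.13, adjusted p = 0.0113), with 4 of 6 SIS ECM libraries above all cells-alone libraries. In MC38, where Sema7a was at 26.1 ± 2.29 CPM, the value with SIS ECM was 25.9 ± 2.00 (adjusted p = 0.932).

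A further 3 membrane semaphorins were called, each in a single line. Sema4b, a class 4 member, fell in CT26 from 23.1 ± 2.47 to 16.3 ± 2.76 CPM (log2 −0.50 ± 0.12, adjusted p = 0.0157), with ranges of 19.1 to 25.7 and 11.4 to 18.8. Sema5a (chr15:32244810-32696341), which carries thrombospondin repeats, rose in MC38 from 131, 134, 122, 95.9 and 93.0 CPM in cells-alone libraries 1 to 5 to 175, 166, 142, 141 and 147 in SIS ECM libraries 1, 3, 4, 5 and 6. The lowest SIS ECM library lay above the highest cells-alone library, and the lower-numbered libraries were higher in both cultures. Its log2 fold change was 0.42 ± 0.11 (adjusted p = 0.0327), and the call was lost without cells-alone library 3 or 5 or SIS ECM replicate 1, 3 or 6, at adjusted p-values up to 0.0630. In CT26 Sema5a was at 161 ± 27.2 and 187 ± 28.3 CPM (log2 0.22 ± 0.12, adjusted p = 0.297), and with the replicate block its adjusted p was 0.0310. SEMA4F rose in HT29 from 1.27 ± 0.30 to 1.88 ± 0.20 CPM (log2 0.55 ± 0.15, adjusted p = 0.0227), with 5 of 6 SIS ECM libraries above all cells-alone libraries. Among the 13 membrane semaphorins, 3 of 6 tested fell in CT26, 2 of 11 rose in MC38 and 2 of 8 rose in HT29.

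Neuropilin 1 (Nrp1, chr8:128358604-128503363), the co-receptor for class 3 semaphorins and VEGF, changed in all lines. In CT26 it ran from 10.1 to 16.4 CPM in cells alone (median 12.3) and from 14.7 to 29.4 with SIS ECM (median 19.9). With SIS ECM, libraries 1 to 3 held 29.4, 28.6 and 23.9 CPM and libraries 4 to 6 held 15.8, 15.4 and 14.7. The cells-alone libraries 1 to 3, at 16.4, 14.3 and 13.3 CPM, overlapped the latter but not SIS ECM libraries 1 to 3. The log2 fold change was 0.74 ± 0.19 (adjusted p = 0.0281), 0.89 in libraries 1 to 3 and 0.50 in libraries 4 to 6, both called. The call over all libraries was lost without any 1 of cells-alone libraries 4, 5 or 6 or SIS ECM libraries 1, 2 or 3, at adjusted p-values up to 0.0661, and with the replicate block the adjusted p was 0.000423.

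In MC38 Nrp1 stood at 53.9, 50.6, 54.3, 55.5 and 59.5 CPM in cells-alone libraries 1 to 5. It stood at 47.0, 44.6, 43.4, 36.7 and 42.6 in SIS ECM libraries 1, 3, 4, 5 and 6, all below every cells-alone library. It fell by 0.35 ± 0.07 on the log2 scale (adjusted p = 0.0110). In HT29 NRP1 rose from 25.3 ± 2.49 to 29.3 ± 1.36 CPM (log2 0.21 ± 0.06, adjusted p = 0.0285), with 5 of 6 SIS ECM libraries above all cells-alone libraries. The HT29 call was lost without cells-alone library 6 or SIS ECM replicate 3, 5 or 6, at adjusted p-values up to 0.0726. The annotated exons of mouse Nrp1 overlap the microRNA gene Mir1903 on the same strand.

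Neuropilin 2 was abundant in both mouse lines and not called over all libraries. In CT26 Nrp2 was at 257, 246, 239, 136, 150 and 152 CPM in cells-alone libraries 1 to 6 and at 315, 332, 333, 187, 186 and 186 in SIS ECM libraries 1 to 6. Each SIS ECM library lay above the cells-alone library of the same number. Libraries 1 to 3 were higher than 4 to 6 in both cultures, which the unblocked test counts as spread (log2 0.38 ± 0.21, adjusted p = 0.297). With the replicate block the adjusted p was 0.000794, and within the number ranges the log2 fold change was 0.39 and 0.36. In MC38 Nrp2 was at 272 ± 49.1 and 280 ± 46.5 CPM, and in HT29 NRP2 was at 1.176 ± 0.197 and 1.21 ± 0.28 CPM.

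**Figure D2:**
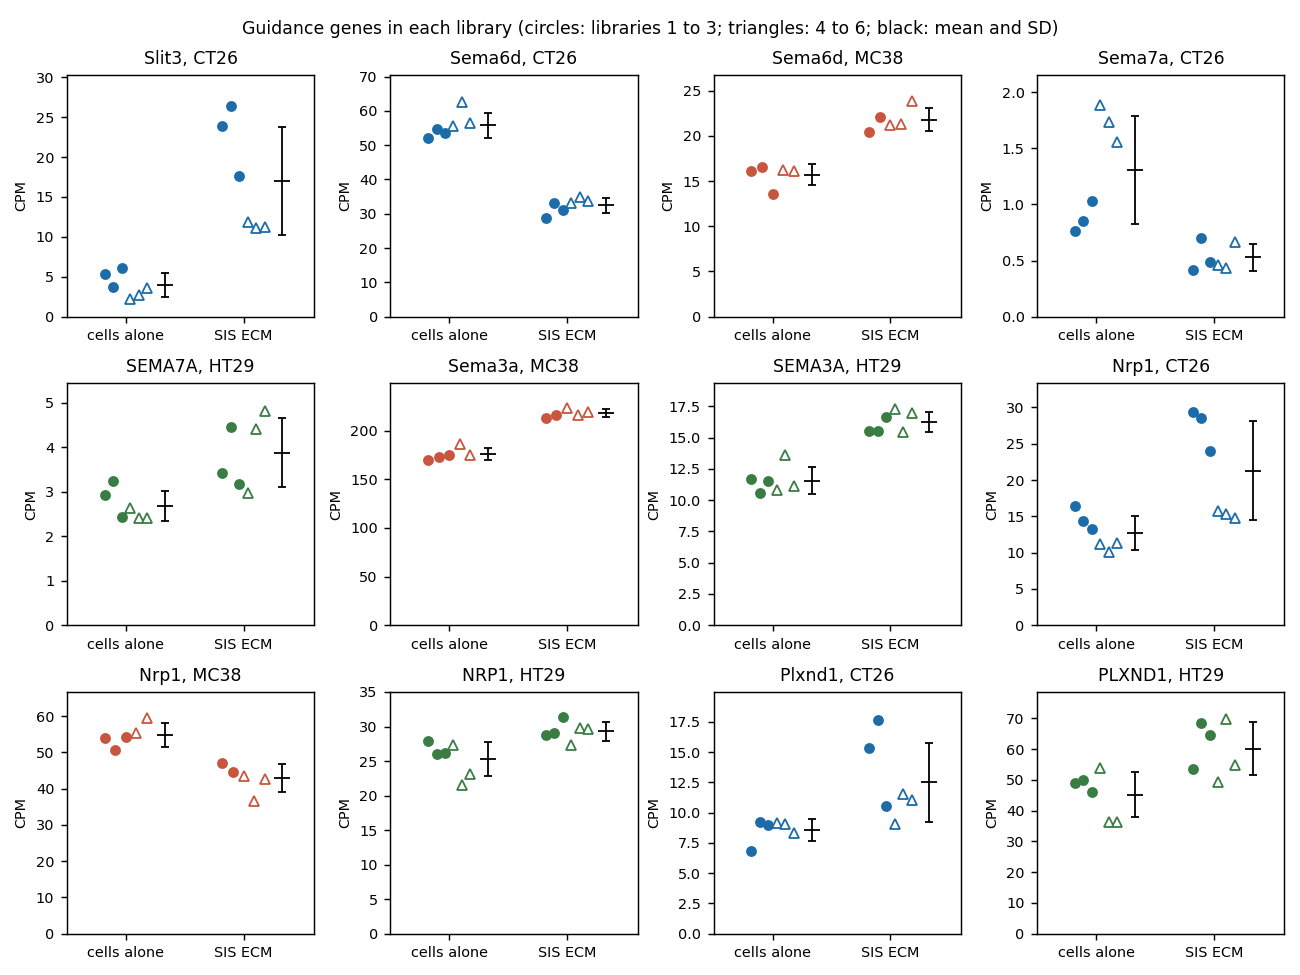
CPM (vertical axes, from 0) of 12 called pairs of gene and line, one point per library, with circles for libraries 1 to 3, triangles for 4 to 6 and black bars for mean and SD. Slit3, Sema6d and Sema7a in CT26, Sema6d, Sema3a and Nrp1 in MC38 and SEMA3A in HT29 show no overlap between cells alone and SIS ECM. Nrp1 in CT26 splits by number range.

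Plexins are the signalling receptors for semaphorins. In CT26, 3 of 6 tested plexins rose, in MC38 1 of 8 rose and 2 fell, and in HT29 2 of 7 rose. Plxnd1 (chr6:115954811-115995005), the Sema3e receptor, rose in CT26 from 8.596 ± 0.903 to 12.5 ± 3.25 CPM (log2 0.55 ± 0.15, adjusted p = 0.0368). Its SIS ECM libraries 1 and 2 held 15.3 and 17.6 CPM, and the other 4 ran from 9.07 to 11.5. The log2 fold change was 0.80 in libraries 1 to 3 and 0.25 in libraries 4 to 6 (adjusted p = 0.136 in the latter). The call held only without SIS ECM library 3, 4 or 6, and the adjusted p reached 0.0864 when other libraries were left out. PLXND1 also rose in HT29, from 45.3 ± 7.38 to 60.1 ± 8.65 CPM (log2 0.41 ± 0.10, adjusted p = 0.0138), with 4 of 6 SIS ECM libraries above all cells-alone libraries. In MC38 Plxnd1 was at 64.6 ± 8.91 and 59.2 ± 4.16 CPM (adjusted p = 0.403).

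The A-type plexins, partners of neuropilins and receptors for class 6 semaphorins, moved differently by member and line. Plxna2 (chr1:194618218-194816869) rose in CT26 from a range of 18.9 to 32.0 CPM (median 26.1) to a range of 31.1 to 45.6 (median 36.9). Within each number range the cultures did not overlap. Over all libraries they overlapped slightly, since cells-alone library 3 held 32.0 CPM and SIS ECM library 4 held 31.1. Its log2 fold change was 0.55 ± 0.15 (adjusted p = 0.0296), lost without cells-alone library 4, 5 or 6 or SIS ECM replicate 1, 2 or 3 at adjusted p-values up to 0.0736, and with the replicate block the adjusted p was 0.000268. In MC38 Plxna2 was at 14.0 ± 4.58 and 11.01 ± 2.36 CPM (adjusted p = 0.338), and in HT29 PLXNA2 was at 59.8 ± 6.42 and 60.5 ± 5.48 (adjusted p = 0.913).

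Plxna1, another A-type plexin, rose in HT29 and was lower in MC38 with a call that depended on single libraries. In HT29 PLXNA1 went from 202 ± 19.7 to 249 ± 25.6 CPM (log2 0.30 ± 0.07, adjusted p = 0.00991), with 5 of 6 SIS ECM libraries above all cells-alone libraries. In MC38 the cells-alone libraries 1 to 5 held 141, 134, 126, 108 and 121 CPM and the SIS ECM libraries 1, 3, 4, 5 and 6 held 107, 101, 103, 109 and 108. The log2 fold change was −0.25 ± 0.07 (adjusted p = 0.0437). That call held only without cells-alone library 4, the adjusted p reached 0.111 without others, and it was 0.0643 with the replicate block. In CT26 Plxna1 was at 58.4 ± 3.58 and 52.4 ± 10.5 CPM (adjusted p = 0.431). Annotated exons of mouse Plxna1 share 970 bases with Gm26811 on the opposite strand. The libraries were stranded, but the sources used here do not give the strand setting of the counting. Whether reads of such pairs were kept apart is therefore not known.

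The B-type plexins, receptors for class 4 semaphorins, differed between the mouse lines in level. Plxnb1 (chr9:109095389-109119917) rose in both, from very different starting levels. In CT26 it ran from 0.487 to 0.939 CPM in cells alone and from 0.517 to 2.02 with SIS ECM, on 72 and 150 counts in all. Its log2 fold change there was 1.01 ± 0.29 (adjusted p = 0.0427), and the call held only without cells-alone library 3 or SIS ECM replicate 4, with adjusted p-values up to 0.0984 for other omissions. In MC38 the cells-alone libraries 1 to 5 held 37.9, 33.3, 33.9, 29.5 and 34.2 CPM, and SIS ECM libraries 1, 3, 4, 5 and 6 held 42.3, 41.7, 37.9, 43.7 and 39.1. The lowest SIS ECM value was 37.89 and the highest cells-alone value 37.86, so the groups were adjacent without overlap. The MC38 log2 fold change was 0.28 ± 0.07 (adjusted p = 0.0324), lost without cells-alone library 2, 3 or 5 or SIS ECM replicate 1, 3, 5 or 6, at adjusted p-values up to 0.0846. PLXNB1 in HT29 was at 155 ± 9.83 and 159.5 ± 12.1 CPM (adjusted p = 0.653). Exons of mouse Plxnb1 share 257 bases with Gm7628 on the opposite strand.

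Plxnb2, the most abundant plexin per kilobase in both mouse lines, fell in MC38. Its cells-alone libraries 1 to 5 held 193, 190, 187, 157 and 187 CPM and its SIS ECM libraries 1, 3, 4, 5 and 6 held 145, 139, 144, 159 and 149. Only cells-alone library 4 lay within the SIS ECM range. The log2 fold change was −0.31 ± 0.07 (adjusted p = 0.0134), −0.43 in libraries 1 to 3 and −0.20 in libraries 4 to 6 (adjusted p = 0.0571 in the latter). In CT26 Plxnb2 was at 132 ± 13.5 and 129.8 ± 35.6 CPM (adjusted p = 0.957) and in HT29 PLXNB2 was at 344 ± 34.3 and 369 ± 31.3 (adjusted p = 0.359).

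Of the netrins and their Unc5 receptors, 1 gene was called. Unc5b (chr10:60762593-60831581), a receptor for netrin 1 that is also known as a dependence receptor, fell in MC38. Its cells-alone libraries 1 to 5 held 33.5, 33.1, 35.2, 37.5 and 41.1 CPM. The SIS ECM libraries 1, 3, 4, 5 and 6 held 20.1, 17.8, 27.7, 28.3 and 31.2 CPM, all below every cells-alone library and lowest in libraries 1 and 3. The log2 fold change was −0.53 ± 0.14 (adjusted p = 0.0299), −0.85 in libraries 1 to 3 and −0.44 in libraries 4 to 6. The call was lost without cells-alone library 1, 2, 3 or 5 or SIS ECM replicate 1, at adjusted p-values up to 0.0715, and with the replicate block the adjusted p was 0.00123. Unc5b was at 30.3 ± 3.51 and 29.5 ± 4.12 CPM in CT26 (adjusted p = 0.864), and UNC5B was at 12.6 ± 1.88 and 11.1 ± 1.65 CPM in HT29 (adjusted p = 0.262). Ntn1, the founding netrin, was at 19.3 ± 3.46 and 22.0 ± 1.86 CPM in MC38 (adjusted p = 0.325). Ntn4, a netrin found in basement membranes, was tested in all lines, with log2 fold changes of 0.11 (CT26), 0.0034 (MC38) and 0.048 (HT29) and adjusted p-values of 0.839, 0.992 and 0.573.

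**Figure D3:**
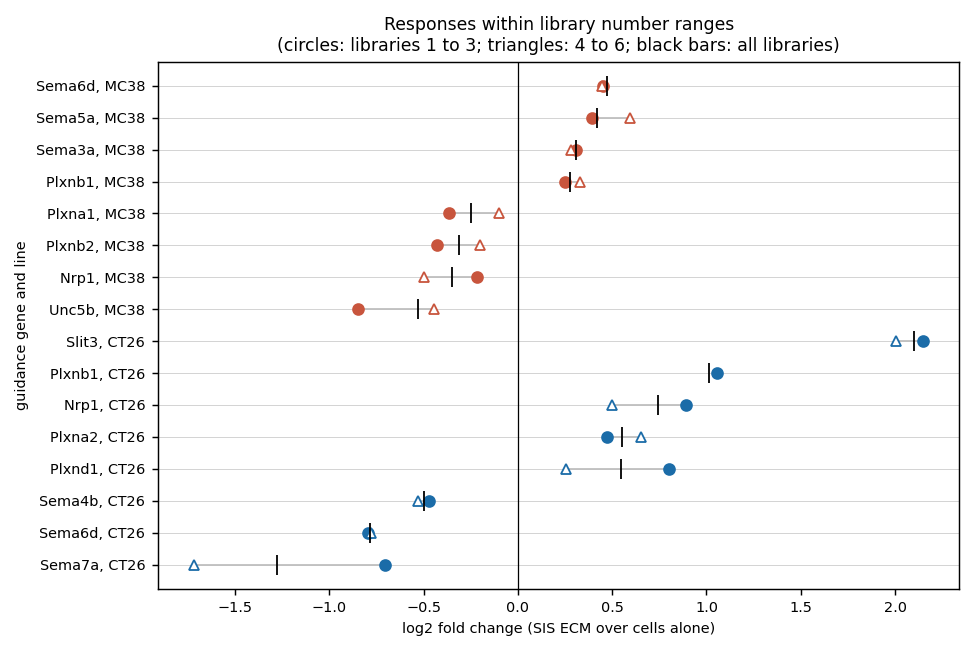
Log2 fold change of the 16 calls in the mouse lines within libraries 1 to 3 (circles), within libraries 4 to 6 (triangles) and over all libraries (black bars). Every point keeps the sign of its black bar; Sema7a in CT26 spans from −0.71 to −1.72, and Plxnb1 in CT26 has no triangle because it passed no low-count filter in libraries 4 to 6.

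Within the number ranges, further members passed the test that did not pass over all libraries, and they are named here after their values were seen. In CT26 7 of 23 tested members were called in libraries 1 to 3 and 12 of 22 in libraries 4 to 6, beside 20% and 19.0% of all genes. In MC38 the counts were 15 of 32 in libraries 1 to 3 and 12 of 32 in libraries 4 to 6, beside 39.7% and 17.1% of all genes. The share of members called in MC38 libraries 1 to 3 was thus near that of all genes. In HT29 they were 2 of 28 in each range, beside 4.69% and 2.73% of all genes.

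Plxna3, an A-type plexin, was called in opposite directions in the MC38 ranges. Cells-alone libraries 1 to 3 held 29.5, 26.3 and 25.1 CPM and SIS ECM libraries 1 and 3 held 22.1 and 19.4, a log2 fold change of −0.39 (adjusted p = 0.000729). Cells-alone libraries 4 and 5 held 21.7 and 20.5 CPM and SIS ECM libraries 4 to 6 held 25.7, 30.5 and 28.2, a log2 fold change of 0.41 (adjusted p = 0.00470). Over all MC38 libraries the cultures overlapped, with a log2 fold change of 0.030 (adjusted p = 0.906). In CT26 libraries 4 to 6, Plxna1 was lower with SIS ECM by a log2 fold change of −0.33 (adjusted p = 0.00155), Plxnb2 by −0.27 (adjusted p = 0.00257) and Unc5b by −0.27 (adjusted p = 0.0106). In CT26 libraries 1 to 3 the same genes stood at −0.0056, 0.17 and 0.17, none called. Ntn4 was called higher in CT26 libraries 4 to 6 (log2 0.58, adjusted p = 0.0294) and stood at −0.18 in libraries 1 to 3 (adjusted p = 0.404). Nrp2 was called in both CT26 ranges, and Sema5a in libraries 4 to 6 (adjusted p = 0.000265). In MC38 libraries 1 to 3, Plxna2, Plxnd1, Sema4d, Sema4g, Sema6a and Sema6b were called lower in addition, with log2 fold changes from −0.93 (Sema4g) to −0.25 (Plxnd1). In MC38 libraries 4 to 6, Ntn1 (log2 0.41) and Nrp2 (log2 0.16) were called higher, and Robo1 (log2 −0.35), Sema3c (log2 −0.49) and Sema3g (log2 −2.21) lower. Sema3g passed no low-count filter over all MC38 libraries. It held 10 and 21 counts in cells-alone libraries 4 and 5, and 3, 0 and 6 in SIS ECM libraries 4 to 6. Within that range it passed the filter only through the cells-alone libraries, where it was high. Its call is therefore no independent support for a fall. A difference between the ranges was not itself tested.

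The difference between the mouse lines in their response was tested as an interaction term in 1 fit of the 22 mouse libraries, in which the low-count filter kept 34 guidance genes. It was called for 5 of the 34 (14.7%), beside 8.27% of all genes. The response was higher in MC38 for 2 (2.87% of all genes) and lower for 3 (5.40% of all genes). The response of Sema6d was higher in MC38 than in CT26 by 1.24 ± 0.10 on the log2 scale (adjusted p = 1.99e-08). Nrp1 responded lower in MC38, with a log2 difference of −1.11 ± 0.23 (adjusted p = 0.00361). Sema6d and Nrp1 were the members called in both mouse lines with opposite signs. For Sema7a the difference was 1.25 ± 0.26 (adjusted p = 0.00376), for Plxna2 −0.90 ± 0.27 (adjusted p = 0.0421) and for Plxnd1 −0.69 ± 0.19 (adjusted p = 0.0253). Within libraries 1 to 3 and within libraries 4 to 6 the difference was 1.23 and 1.22 for Sema6d, −1.12 and −0.997 for Nrp1 and −0.86 and −0.61 for Plxna2, all called. For Plxnd1 it was −1.07 in libraries 1 to 3 (adjusted p = 0.00394) and −0.20 in libraries 4 to 6 (adjusted p = 0.382). For Sema7a it was 0.56 in libraries 1 to 3 (adjusted p = 0.175) and 1.76 in libraries 4 to 6 (adjusted p = 0.000222). The Plxna2 call was lost in 13 of 22 single omissions, namely CT26 cells-alone 4, 5 or 6 and SIS ECM 1, 2 or 3, and MC38 cells-alone 1, 2 or 3 and SIS ECM 3, 4, 5 or 6, at adjusted p-values up to 0.0948. That of Plxnd1 was lost without MC38 cells-alone library 1 or 2 or CT26 SIS ECM library 1, at adjusted p-values up to 0.0554. The count was 3 in each of those 3 omissions. With the replicate block 8 members were called, Unc5b (adjusted p = 0.0238), Nrp2 (0.0259) and Plxnb1 (0.0420) in addition, and with a term for the number range 12 were. The range term raised the calls over all genes as well, as given in the last section, so the rise to 12 was not particular to guidance genes. Without the block, Plxnb1 had an adjusted p of 0.0842 and Unc5b of 0.0755, so a different response in the lines was not shown for them in that fit. Slit3 and Sema6a, with no count in one of the lines, allow no such test, and responses in HT29 were not tested against those in mouse.

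Without matrix the mouse lines differed in which guidance genes they held. Of 34 members, 19 were higher in MC38 and 12 in CT26 (91.2% called), beside 41.3% and 36.8% of all genes (78.1% in all). Counts scaled to the merged exon length, as CPM per kilobase, allow genes to be ranked. In CT26 Sema3a led at 107 ± 7.16, followed by Plxnb2 at 17.0 ± 1.75, Nrp2 at 16.6 ± 4.74, Slit2 at 12.8 ± 1.22, Sema5a at 8.62 ± 1.46, Plxna1 at 6.45 ± 0.40 and Sema6d at 5.29 ± 0.34. The lead of Sema3a is far beyond the spread, whereas Plxnb2 and Nrp2 lie within it. In MC38 Plxnb2 at 23.7 ± 1.90 and Nrp2 at 23.0 ± 4.15 led, within each other's spread, then Plxna1 at 13.9 ± 1.40 and Sema3a at 12.7 ± 0.44, which overlap as well. Plxnd1 at 8.85 ± 1.22, Sema7a at 7.91 ± 0.70, Sema5a at 6.16 ± 1.04, Unc5b at 5.77 ± 0.53 and Nrp1 at 5.60 ± 0.33 followed. Human gene lengths were not used, so HT29 levels are not ranked per length. By CPM alone the highest there were PLXNB2 at 344 ± 34.3, SEMA4B at 284 ± 27.3 and PLXNA1 at 202 ± 19.7.

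Secreted ligands differed between the lines in both directions. Sema3a was 9.55-fold higher in CT26 than in MC38 cells alone (adjusted p = 1.06e-20) and Slit2 5.94-fold (adjusted p = 1.72e-19), and the membrane-held Sema6d was 4.01-fold higher in CT26 (adjusted p = 5.51e-18). Slit3 was at least 169-fold higher and Sema3e at least 35.6-fold higher in CT26, taking 3 counts over the group as the floor for MC38, where both were at 0 in cells alone. The secreted ligands Ntn1 and Sema3c were higher in MC38, at 19.3 and 22.5 CPM, with 1 count each over the CT26 cells-alone libraries. MC38 held the receptors Plxnb1 at 45.1-fold (adjusted p = 1.80e-18), Robo1 at 61.6-fold, Plxnd1 at 6.66-fold and Nrp1 at 3.79-fold the CT26 level. It also held Sema7a at 17.8-fold and Sema6a at least 970-fold the CT26 level, again with a floor of 3 counts over the group, since Sema6a had no count in CT26. The receptor Plxna4 had 1 count over the CT26 cells-alone libraries and stood at 8.25 CPM in MC38. These folds and bounds are on the scale of the joint mouse fit, while CPM levels were scaled within each line, which gives MC38 over CT26 ratios 1.13 times as high. Of the members whose responses differed between the lines, Plxna2 (2.10-fold) and Sema6d (4.01-fold) were higher in CT26, while Nrp1, Plxnd1 and Sema7a were higher in MC38. Plxnb2 was 1.23-fold higher in MC38 (adjusted p = 0.0379), a call lost without CT26 cells-alone library 1, 2, 4, 5 or 6 or MC38 cells-alone library 1, 2, 3 or 5, at adjusted p-values up to 0.0875. Unc5b, Nrp2 and Sema3b were the 3 members not called (adjusted p = 0.584, 0.178 and 0.458). With replicate number as a block shared by the lines, the test of Nrp2 MC38 against CT26 cells alone was called (adjusted p = 0.00317). The labels do not link the numbers of one line to those of the other, so that call rests on an assumed pairing.

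**Figure D4:**
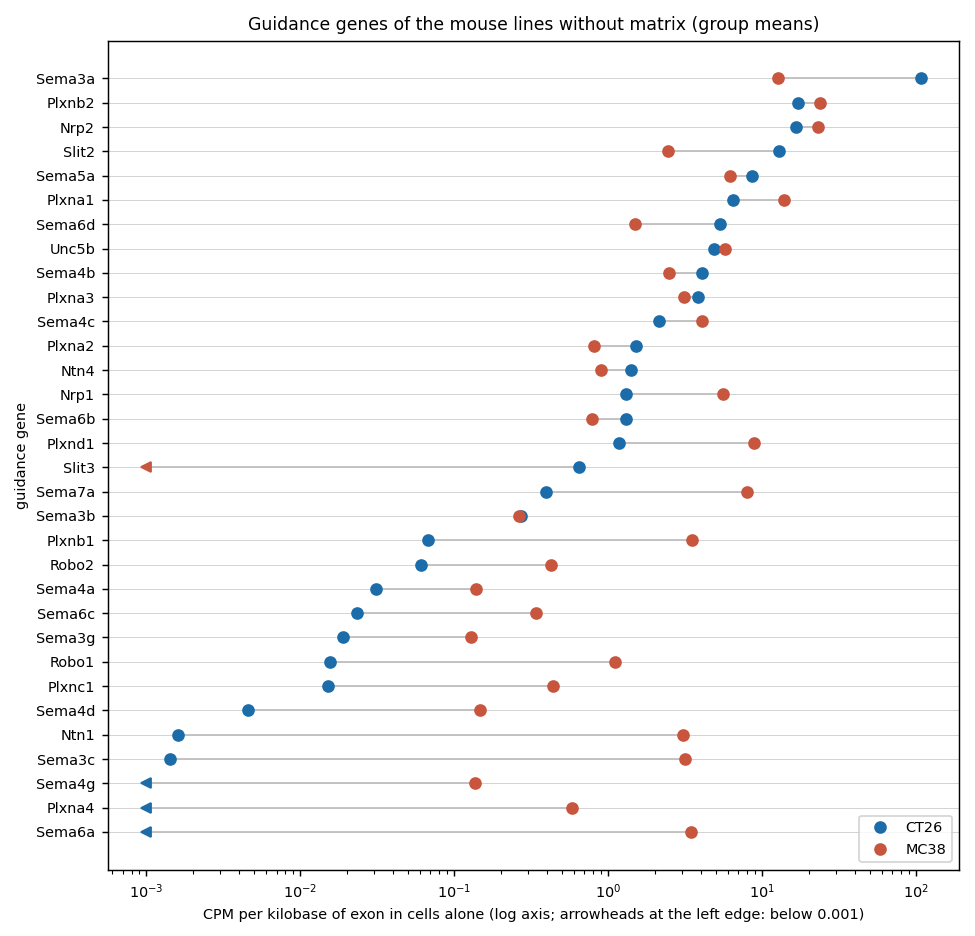
CPM per kilobase of exon in cells alone (log axis) for each guidance gene at 0.1 or more in at least one mouse line, group means of 6 CT26 libraries (blue) and 5 MC38 libraries (red), with arrowheads for values below 0.001. Sema3a leads in CT26 at 107, and Slit3 at the left edge is the MC38 value at 0.

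Members that did not pass the low-count filter were 23 in CT26, 15 in MC38 and 18 in HT29, and their mean levels in cells alone were at most 0.258 CPM in CT26 (Robo1), 0.581 in MC38 (Sema3g) and 0.240 in HT29 (NTN5). No count at all was found for 5 of them in CT26 (Robo4, Sema5b, Sema6a, Unc5a and Unc5d), 1 in MC38 (Slit3) and 3 in HT29 (SEMA3D, SEMA6D and UNC5C). A total of 16 genes were tested in all lines and 5 in none (NTN3, NTN5, ROBO4, SEMA5B and UNC5D). The remaining tested members, those called in no line, had log2 fold changes between −0.94 (Sema4d in MC38, adjusted p = 0.0731) and 0.38 (Nrp2 in CT26).

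Co-receptors, other ligands and cytoplasmic effectors of these pathways, a list of 79 genes with 78 in the mouse table, were counted by the same test. In CT26, 4 of 57 tested rose and 1 fell (8.77%), near the 9.25% of all genes. Nrcam, a cell adhesion molecule that associates with neuropilin 2, fell from 8.62 ± 0.39 to 3.86 ± 0.81 CPM (log2 −1.15 ± 0.13, adjusted p = 5.55e-05), and its cultures did not overlap. The VEGF genes Vegfa and Vegfb rose by 0.45 and 0.50 on the log2 scale. Cdk5, a kinase downstream of Sema3a, rose by 0.49 and the latrophilin Adgrl3 by 0.56. The Adgrl3 call was lost without cells-alone library 2, 4, 5 or 6 or SIS ECM replicate 1, 2 or 3, at adjusted p-values up to 0.0698. With the replicate block 14 partners were called, and calls over all genes rose with the block too, as given in the last section.

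In MC38, 3 of 63 partners rose and 4 fell (11.1%), beside 9.17% of all genes. L1cam, a co-receptor for Sema3a, fell by 0.51 on the log2 scale, the small GTPase Rras, a target of the plexin GAP domain, by 0.48, Erbb2 by 0.42 and dystroglycan Dag1, a matrix receptor that binds Slits, by 0.41. Rgmb, a neogenin ligand, rose by 0.36 and Cdk5 by 0.29. The L1cam call was lost without cells-alone library 1, 2 or 3 or SIS ECM replicate 4, 5 or 6 (adjusted p up to 0.0794), and that of Erbb2 without cells-alone library 1, 2 or 3 (up to 0.0639). The Cdk5 call was lost without cells-alone library 1, 2, 3 or 4 or SIS ECM replicate 4, 5 or 6 (up to 0.106), and with the block its adjusted p was 0.0951. The number of partners called in MC38 was 3 without cells-alone library 1, 2 or 3 and 4 without SIS ECM library 4 or 6.

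In HT29, 11 of 56 partners rose and 2 fell (23.2%), beside 13.5% of all genes. The collapsin response mediators DPYSL3 and DPYSL2, which carry semaphorin signals to microtubules, rose by 0.89 ± 0.15 and 0.34 ± 0.05 on the log2 scale, with no overlap of the cultures for either. DPYSL3 went from 1.66 ± 0.36 to 3.09 ± 0.52 CPM and DPYSL2 from 50.6 ± 3.69 to 63.8 ± 3.11. Of the Ena/VASP proteins, actin regulators downstream of Robo, ENAH rose by 0.41 ± 0.04 (adjusted p = 4.54e-06) and EVL fell by 0.57 ± 0.15 (adjusted p = 0.01997), the latter lost without cells-alone library 4 (adjusted p = 0.0582). ADGRL1 rose by 0.38 and the kinase FYN by 0.33. The ADGRL1 call was lost without cells-alone library 3 or 4 or SIS ECM replicate 2, 3 or 5 (adjusted p up to 0.0775), and that of FYN held only without cells-alone library 3 or SIS ECM replicate 1 or 4 (up to 0.0979). The HT29 partner count was 7 without cells-alone library 4 and 8 without SIS ECM library 2, 3 or 5.

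The authors' deposited table, which has its own fold changes and adjusted p-values, held 22 of the members tested here for CT26, 29 for MC38 and 27 for HT29. The sign of the authors' fold change was the same as here for 18, 28 and 26 of them. Calls shared with the authors' deposited table numbered 7 of 8 in CT26, 4 of 8 in MC38 and 8 of 8 in HT29. In the authors' deposited table Robo2 in CT26 (log2 −0.59, adjusted p = 0.0372) and Sema4g in MC38 (log2 −1.43, adjusted p = 0.0215) were below 0.05, and neither was called here. For Plxnb1 in CT26 the authors' deposited table gave an adjusted p of 0.123. In MC38 the authors' deposited table gave adjusted p-values of 0.0859 for Nrp1, 0.0580 for Plxnb1, 0.137 for Plxnb2 and 0.0863 for Plxna1.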

How the data were processed

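PolyA RNA of 34 spheroid libraries was sequenced with a stranded mRNA kit as read pairs, per the labels' protocols. The submitters' processing notes name cutadapt 1.18, STAR 2.7.0f, RSEM 1.3.1, limma and the builds mm10 and hg38, without the step each was used for. For each species the authors deposited a gene table of unnormalised expected counts, and these were rounded to whole numbers here (2244 to 2621 values per mouse library were not whole). Per the file headers, the authors also deposited p-values, a t statistic (a score) and a log2 fold change for every gene and line, and 34 per-sample columns in their tables were not used.

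SIS ECM was compared with cells alone in each line with edgeR 4.0.16 (R 4.3.3), by the two-sided quasi-likelihood F test with TMM factors (0.917 to 1.08) and filterByExpr at a minimum count of 10. P-values were adjusted by Benjamini-Hochberg over all genes tested, at a threshold of 0.05. CPM values are TMM-scaled counts per 1e6 counts; means carry the SD and log2 fold changes the SE. The mouse lines were compared in 1 fit over 4 groups. Levels per kilobase used merged exons of GENCODE M21, in which all 55450 mouse identifiers matched; human coordinates were not used. The script was tested on simulated counts.

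The members and lists were chosen with earlier results of these data known. Named genes were every member called in any line or in the difference of responses, the 3 members of highest CPM in each line, and per line up to 6 called partners with the largest fold change. None of 80 within-group pairs of libraries agreed within sampling noise, with a chi-square over its degrees of freedom of 1.89 to 137. Replicate numbers come from the labels. Deviations from group means of same-numbered libraries correlated at 0.271 to 0.609 in CT26 and 0.208 to 0.414 in MC38. In CT26 the best match had the same number only for cells-alone library 5 and SIS ECM library 4. In MC38 this was so for cells-alone libraries 1 and 4 and SIS ECM libraries 3 and 4. Libraries of a number range also resembled each other, and pairing beyond that was not tested. The numbers were thus taken as pairs there by assumption, and blocked values are given where they change a call. Blocked fits with MC38 drop its unpartnered libraries, cells-alone 2 and SIS ECM 6. Alternatives were DESeq2 1.42.0 (its Wald test, and its size factors in edgeR), no low-count filter, the replicate block, a term for libraries 1 to 3 against 4 to 6, each number range alone, and leaving out each library.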

Additional observations from a re-analysis of the deposited data

Results flagged for a closer look

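In 5 of 92 groups of CPM values examined (named members by culture and line), 1 library stood apart from the others by Dixon's gap test at 95%, and chance gives about 1 in 20. Plxnb2 was highest in CT26 cells-alone library 3, at 157 CPM, with the next at 132. Plxnd1 was lowest in CT26 cells-alone library 1, at 6.86 CPM, with the next at 8.36. In MC38 cells alone, Plxnb2 was lowest in library 4, at 157 CPM with the next at 187, and Sema6d was lowest in library 3, at 13.6 CPM with the next at 16.1. SEMA3A in HT29 cells-alone library 5 was highest, at 13.6 CPM with the next at 11.7, and was still below all 6 SIS ECM libraries.

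The response to SIS ECM differed between the mouse lines for 5 members by the interaction test. On the log2 scale, MC38 minus CT26, it was 1.24 for Sema6d, 1.25 for Sema7a, −1.11 for Nrp1, −0.90 for Plxna2 and −0.69 for Plxnd1.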

How the results depend on the processing

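No result called over all libraries changed sign under any alternative. The count of called guidance genes was 8 in each line, and leaving out 1 library gave 4 to 8 in CT26, 4 to 9 in MC38 and 6 to 8 in HT29. In libraries 1 to 3 and 4 to 6 alone, with fewer samples, it was 7 and 12 in CT26, 15 and 12 in MC38 and 2 and 2 in HT29. With a number-range term it was 10 in CT26, 14 in MC38 and 8 in HT29. Members with different mouse responses numbered 5, 3 to 7 without 1 library, 8 with the replicate block and 12 with the range term; those differing in cells alone numbered 31, and 30 to 32.

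The same was done for the genes changed by SIS ECM in CT26, the genes changed by SIS ECM in MC38, the genes changed by SIS ECM in HT29, and the genes with a different SIS ECM response in MC38 and CT26. The replicate block gave 2281 in CT26 against 1135 unblocked. The range term gave 3545 in CT26, 3246 in MC38 (1206 without) and 3740 for the difference of responses (1165 without). Genes tested numbered 12269 in CT26, 13146 in MC38 and 14080 for the difference of responses. Libraries 1 to 3 alone gave 2484 in CT26, 5287 in MC38 and 719 in HT29, and libraries 4 to 6 gave 2333, 2318 and 417 (2058 over all HT29 libraries). Omissions gave 792 to 1364, 626 to 1948 and 1445 to 2464 in the lines, 813 to 1727 for the responses and 10741 to 11100 for cells alone. In MC38, 1948 was reached without cells-alone library 4 and 626 without library 2.

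For partners in CT26 (5), the counts were 10 by DESeq2's Wald test, 14 with the block, 22 with the range term, 13 in libraries 1 to 3 and 21 in libraries 4 to 6, and 4 to 7 under omissions. In MC38 (7) they were 20 with the term, 31 and 14 in the ranges, and 3 to 9 under omissions. In HT29 (13) they were 7 and 4 in the ranges and 7 to 17 under omissions. The cause of these shifts was not tested.

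In HT29 the numbers did not pair libraries (correlations of −0.143 to 0.0733), and the replicate block gave 7 called members, with SEMA3B lost. The block changed no member's call in the mouse lines other than those named in the report. Depth limits members near 1 CPM, such as Sema7a and Plxnb1 in CT26.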
